A study of Mus musculus with 23 samples.

Results

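The 35 genes described here are interferon-stimulated genes, the effector genes that cells switch on when interferon binds its receptor. They were taken by symbol from the deposited gene count table: all 35 were among its 35976 genes, and all 35 passed the filter on low counts that left 16121 genes for testing. The rule takes genes by symbol and sets no threshold on a measured value.

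RNA came from microglia, the resident macrophages of the brain, of the striatum. The mice were male C57BL/6J and are given as 9 weeks old. No genetic change is named for any group, and every mouse had access to intravenous infusions in 2-hr sessions for 15 days. The Saline group (n = 8 libraries) took 0.9% saline and was collected after the last session. The Maintenance group (n = 8) took methamphetamine at 0.05 mg/kg per infusion and was collected at the same point. The Abstinence group (n = 7) took the same dose of methamphetamine and then spent 21 days in the home cage without it. No saline group passed through those 21 days, so drug history, age and home cage time cannot be told apart in Abstinence against Saline. The labels do not say that libraries came from separate animals, and the spread behind each p-value, which is that between libraries, may be technical. In bulk RNA, fewer cells of a type and less RNA per cell cannot be told apart.

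Type I interferons bind the receptor made of IFNAR1 and IFNAR2, whose kinases phosphorylate STAT2 and other factors. With IRF9, STAT2 is part of a complex that binds the interferon-stimulated response element, a repeated GAAA core, in the promoters of target genes. The targets block viral RNA, tag proteins, sense foreign nucleic acids and feed back on the pathway. Microglia hold a low standing level of this programme, and a subset of them shows it strongly in ageing, infection and injury.

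The members' promoters were searched for that core. RefSeq promoters (GRCm38.p6, from 250 bases before to 50 after the start of transcription) were matched to 25 members. A match was GAAA, any 2 bases and GAAA again, on either strand and with overlapping matches of this core allowed. It was found in 14 of the 25 (56.0%), against 3.99% of 27025 genes with a promoter of the same length. The 14 were Bst2, Cxcl10, Ddx58, Ifih1, Ifit1, Ifit3, Ifit3b, Ifitm3, Isg15, Oas1a, Oas3, Rsad2, Stat2 and Trim30a. The core of the gamma-activated site, TTCNNNGAA, which reads the same on both strands, was in 7 of the 25 (28.0%) and in 9.55% of genes. These 7 were Bst2, Ifi35, Ifit2, Ifitm3, Irf1, Isg20 and Oas1a. Oas2, Mx1, Usp18, Rtp4, Dhx58, Zbp1, Mx2, Ifi204, Ifi27l2a and Parp14 were not matched. A match describes letters and is not a measured binding site.

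The promoters of Ifit3, the only member to pass a test, and of its near copy Ifit3b are given whole. They were 99.2% identical over 260 aligned bases, and both carry the core 2 times. They are written 5′ to 3′ along the gene with this core in capitals. Both genes show it as its reverse complement.
Ifit3 (chr19:34583279-34583578, plus strand): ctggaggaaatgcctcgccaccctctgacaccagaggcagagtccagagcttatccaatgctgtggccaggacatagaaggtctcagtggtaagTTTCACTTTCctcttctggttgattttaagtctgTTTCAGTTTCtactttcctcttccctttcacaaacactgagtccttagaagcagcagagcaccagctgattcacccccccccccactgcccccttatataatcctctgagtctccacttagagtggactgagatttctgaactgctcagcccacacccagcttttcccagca
Ifit3b (chr19:34607707-34608006, plus strand): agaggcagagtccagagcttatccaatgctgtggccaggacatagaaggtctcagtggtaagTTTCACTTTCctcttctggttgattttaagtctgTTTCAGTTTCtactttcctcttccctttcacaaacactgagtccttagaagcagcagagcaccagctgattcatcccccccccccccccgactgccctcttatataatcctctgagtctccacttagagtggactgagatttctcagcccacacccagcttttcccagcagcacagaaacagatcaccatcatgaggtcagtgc

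For 6 other members the stretch around the core is given with 10 bases on each side, to show how the core repeats or stands alone. It repeats with overlap in Isg15, Oas1a and Bst2, repeats at a distance in Ifit1 and Ifitm3, and stands once in Stat2.
Ifit1 (chr19:34640775-34640823, plus strand): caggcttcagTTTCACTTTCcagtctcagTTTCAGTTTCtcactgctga
Isg15 (chr4:156200865-156200906, minus strand): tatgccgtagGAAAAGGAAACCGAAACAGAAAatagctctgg
Oas1a (chr5:120907520-120907555, minus strand): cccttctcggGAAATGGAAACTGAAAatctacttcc
Ifitm3 (chr7:141010706-141010752, minus strand): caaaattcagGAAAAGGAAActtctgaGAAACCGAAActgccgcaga
Bst2 (chr8:71537577-71537612, minus strand): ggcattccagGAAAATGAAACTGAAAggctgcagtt
Stat2 (chr10:128270266-128270295, plus strand): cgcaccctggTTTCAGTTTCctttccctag

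Totals were 55 to 94.8 M counts per library (M is 1e6, median 75.4 M). If counts are tallied reads, a count of 0 allows at most 0.0316 to 0.0546 counts per 1e6 counts (CPM), by 3 counts of the library's total. All CPM here are scaled with TMM factors. The 11 microglial markers summed to 42018 to 64029 CPM and none of them was at 0 in any library. The tissue label is Neuronal, and 11 markers of striatal neurons summed to 23.3 to 379 CPM. The highest sum was in Maintenance 8, where Ppp1r1b alone gave 370 CPM, and the next was in Abstinence 5, at 125 CPM. Maintenance 6 and Maintenance 7 had the fewest genes detected (12459 and 12740, against up to 17034), and in Maintenance 8 markers of choroid plexus and ependyma summed to 74674 CPM, against 104 to 328 CPM in the other Maintenance libraries. For most members in which Maintenance 6 or 7 lay apart, fold changes are also given without these libraries.

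The standing level of the programme in Saline microglia was uneven across its members. Per kilobase of exon (GENCODE M21 gene models), the highest were Bst2, tetherin, which holds budding virus at the cell surface, at 88.8 ± 8.2 CPM per kb (SD, n = 8), and Ifitm3, which blocks viral fusion in endosomes, at 73.5 ± 24.8 CPM per kb. Ifi35, a partner of NMI, followed at 40.7 CPM per kb and Irf1, a transcription factor of both interferon types, at 31.6 CPM per kb. Bst2 and Ifitm3 differed by less than the SD of Ifitm3, while Ifi35 and Irf1 lay below both by more than that SD. Isg15, the classical marker of the programme, stood at 10.1 CPM per kb, next to Ifit3 and Rtp4, both at 11.4. At the low end Oas2, Mx1 and Oas3 stood at 0.06, 0.08 and 0.11 CPM per kb. Of the 35 members, 27 had a count in every library and 8 were at 0 in at least 1 (Oasl1, Oas2, Oas3, Mx1, Mx2, Ifi44, Dhx58 and Zbp1).

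**Figure D1:**
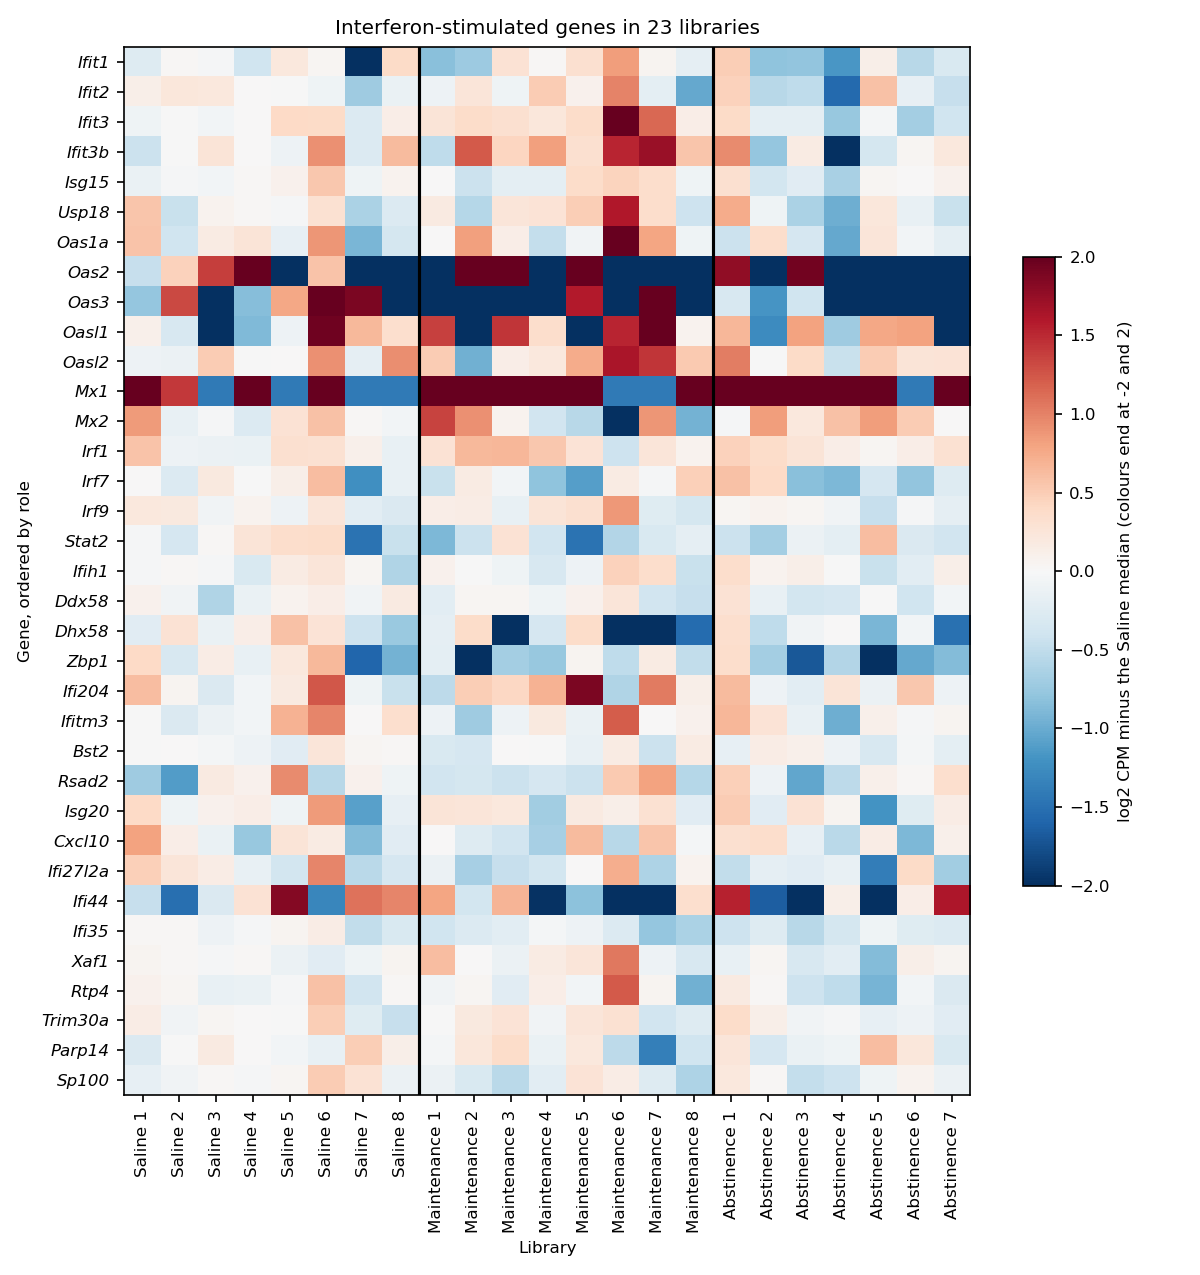
Each cell is the log2 CPM (prior count 2) of 1 member in 1 library minus that member's Saline median, with colours ending at -2 and 2 and black lines between groups. The column of Maintenance 6 holds both the warm cells of Ifit3, Oas1a and Usp18 and cold cells of Mx1, Mx2 and Dhx58, and the saturated cells of Oas2, Oas3, Oasl1, Mx1 and Ifi44 come from members with counts of 0 in some libraries.

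At the end of methamphetamine self-administration no member had risen or fallen by the test. None passed in Maintenance against Saline by edgeR's quasi-likelihood test (Benjamini-Hochberg adjusted p under 0.05 over all genes tested), where 0.707% of all genes did. Fold changes were positive for 18 members (50.6% of all genes) and negative for 17 (49.4% of all genes), and their median log2 fold change was 0.01, the same as over all genes. At an unadjusted p under 0.05 there were 2 members (5.71%), against 11.8% of all genes. DESeq2 and limma voom also called 0 members.

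After 21 days of abstinence again no member passed against Saline, where 0.0186% of all genes passed. The log2 fold change was negative in 29 of 35 members (82.9%), against 48.7% of all genes, and positive in 6, against 51.3%. Its median was -0.15. This lean moved with the choice of libraries. With 1 library left out, 3 to 9 members had a positive fold change. In the 17 libraries of the second deposited table, which lacks Saline 5, Saline 6, Saline 8 and Maintenance 6 to 8, 16 members had a positive fold change in place of 6. Only 1 member (2.86%) had an unadjusted p under 0.05, against 4.39% of all genes.

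Abstinence against Maintenance gave the 1 member that passed. Ifit3 was lower in Abstinence, which is 2.86% of the members, where 0.552% of all genes passed as lower and 0.949% in either direction. Fold changes were negative for 26 members (49.2% of all genes) and positive for 9 (50.8% of all genes), with a median of -0.15, and 4 members (11.4%) had an unadjusted p under 0.05, against 11.0% of all genes. Maintenance libraries stand on the other side of both this comparison and the first, so the 2 are not independent. In none of the 3 comparisons did the libraries of 2 groups separate without overlap for any member. Of all genes, 0.167% did so as higher and 0.248% as lower in Maintenance against Saline, 0.0496% and 0.149% in Abstinence against Saline, and 0.205% and 0.198% in Abstinence against Maintenance.

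**Figure D2:**
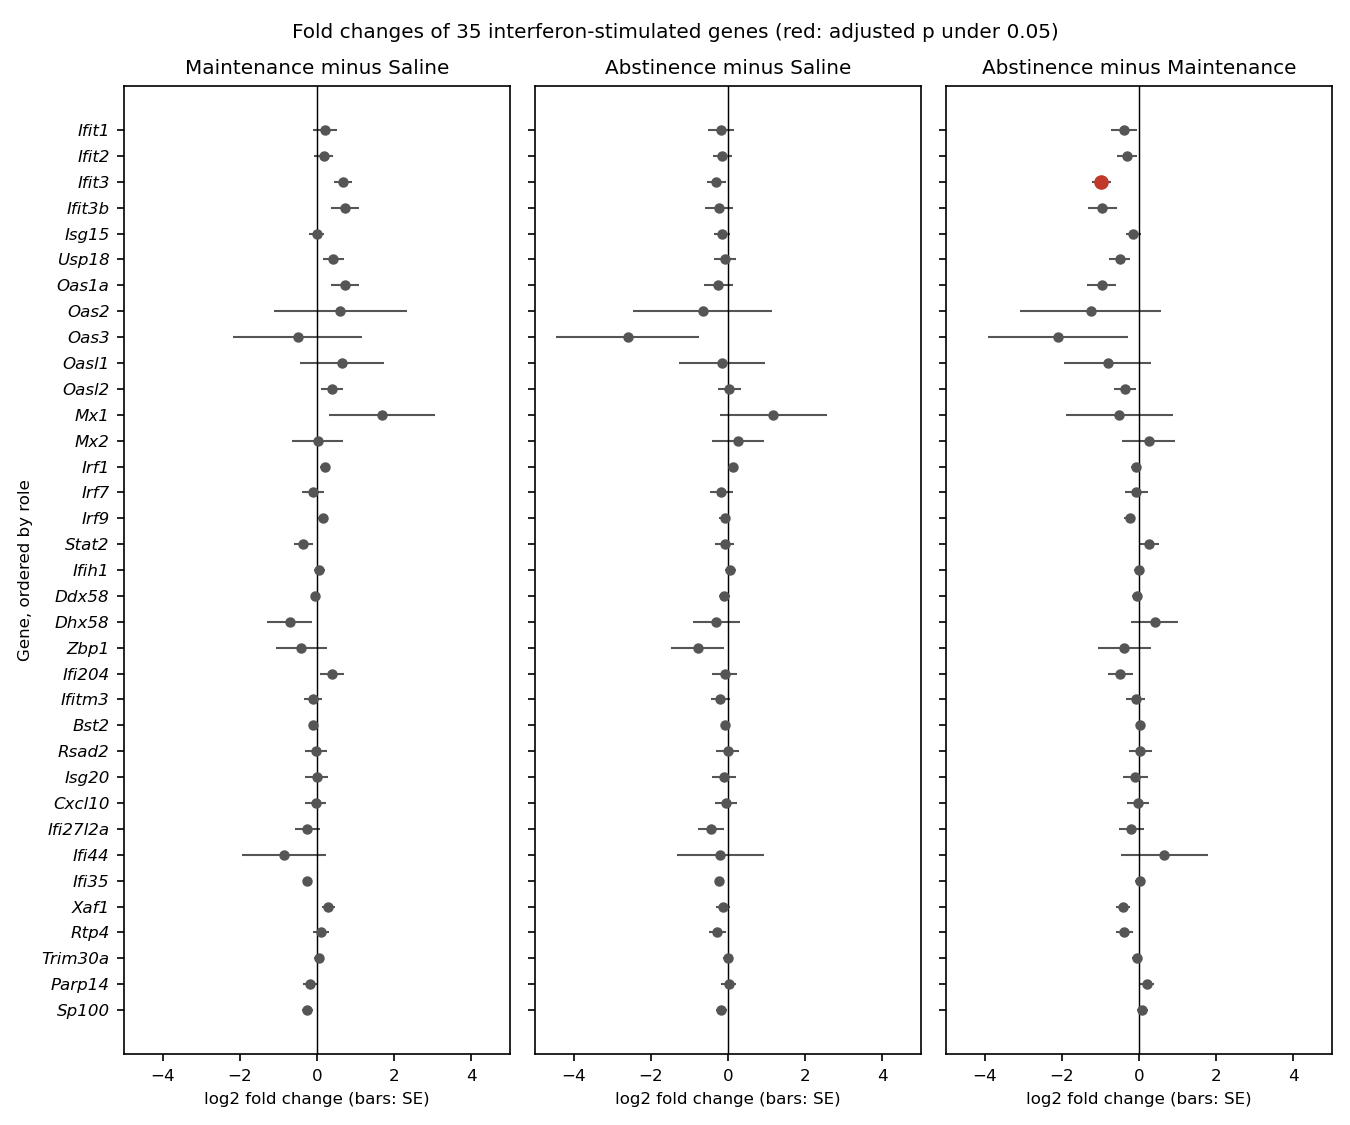
Points are the log2 fold changes of the 35 members in the 3 comparisons and bars are their SE from edgeR's quasi-likelihood fit. Ifit3 in Abstinence minus Maintenance is the red point, and the widest bars belong to Oas2, Oas3, Mx1, Oasl1 and Ifi44.

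The IFIT proteins bind viral RNA and each other through tetratricopeptide repeats, and their genes lie side by side on chromosome 19. Ifit3 is a protein-coding gene on the plus strand (ENSMUSG00000074896.3, GRCm38 chr19:34583531-34588731). It measured 15.5 to 24.8 CPM in Saline (median 18.8), 20.6 to 75.7 in Maintenance (median 23.9) and 11.1 to 24.6 in Abstinence (median 16.4). The Maintenance range was set by 2 libraries, Maintenance 6 at 75.7 and Maintenance 7 at 41.7 CPM, while the other 6 lay between 20.6 and 24.3. In Abstinence the highest library, Abstinence 1 at 24.6 CPM, lay above all 6 of those, and the other 6 Abstinence libraries lay at 11.1 to 18.3 CPM, below every Maintenance library. Maintenance 6 and 7 were also the libraries with the fewest genes detected and the largest sums of endothelial and pericyte markers in their group (2276 and 1745 CPM), and the part of these in the Ifit3 values was not tested. From Maintenance to Abstinence the log2 fold change was -0.98 ± 0.24 (SE; adjusted p = 0.0447). From Saline to Maintenance it was 0.68 ± 0.23 (unadjusted p = 0.00671, adjusted p = 0.172), which became 0.36 without Maintenance 6 (adjusted p = 0.398) and 0.23 without Maintenance 6, 7 and 8 (adjusted p = 0.70). From Saline to Abstinence it was -0.30 ± 0.24 (adjusted p = 0.999).

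The call on Ifit3 stood close to the threshold. Without Maintenance 6 the log2 fold change of Abstinence against Maintenance was -0.68 (adjusted p = 0.0611), and the Maintenance mean went from 31.8 ± 19.0 to 25.5 ± 7.3 CPM. Without Maintenance 7 it was -0.93 (adjusted p = 0.0666), and without Maintenance 6, 7 and 8 together it was -0.54 (adjusted p = 0.117). The call also ended without Saline 1, 2, 3 or 4 (adjusted p = 0.0538, 0.056, 0.0522 and 0.0524) and without Abstinence 2, 3, 4, 5, 6 or 7 (0.08, 0.0825, 0.115, 0.0533, 0.0994 and 0.0887). It held without Maintenance 8 (-1.06, adjusted p = 0.0202) and without Abstinence 1 (-1.12, adjusted p = 0.0217). DESeq2 gave -1.0 (adjusted p = 0.0049) and limma voom -0.73 (adjusted p = 0.014).

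Ifit3b, the near copy of Ifit3 (chr19:34607970-34613401), measured 3.10 to 7.93 CPM in Saline (median 4.18), 2.93 to 14.0 in Maintenance (median 6.78) and 0.947 to 8.07 in Abstinence (median 4.32). Maintenance 7 and Maintenance 6 were again the 2 highest, at 14.0 and 12.1 CPM, followed by Maintenance 2 at 9.85, and the groups overlapped. The fold change of Abstinence against Maintenance was -0.95 ± 0.37 (adjusted p = 0.275), and -0.61 without Maintenance 6, 7 and 8 (adjusted p = 0.638). The transcripts of Ifit3 and Ifit3b were 98.0% identical over 1697 aligned bases, so reads may be split between them and each value is uncertain. Summed, the pair gave -0.98 ± 0.24 (adjusted p = 0.0421).

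Ifit1, which binds RNA with an unmethylated cap, and Ifit2 did not pass. Ifit1 measured 7.01 ± 2.67, 8.09 ± 3.05 and 6.15 ± 2.63 CPM in Saline, Maintenance and Abstinence (SD), and Ifit2 measured 21.5 ± 3.9, 24.3 ± 9.7 and 19.4 ± 9.0. Both were highest in Maintenance 6 within their group, at 13.9 and 43.4 CPM. Without it their log2 fold changes of Abstinence against Maintenance were -0.25 and -0.16.

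**Figure D3:**
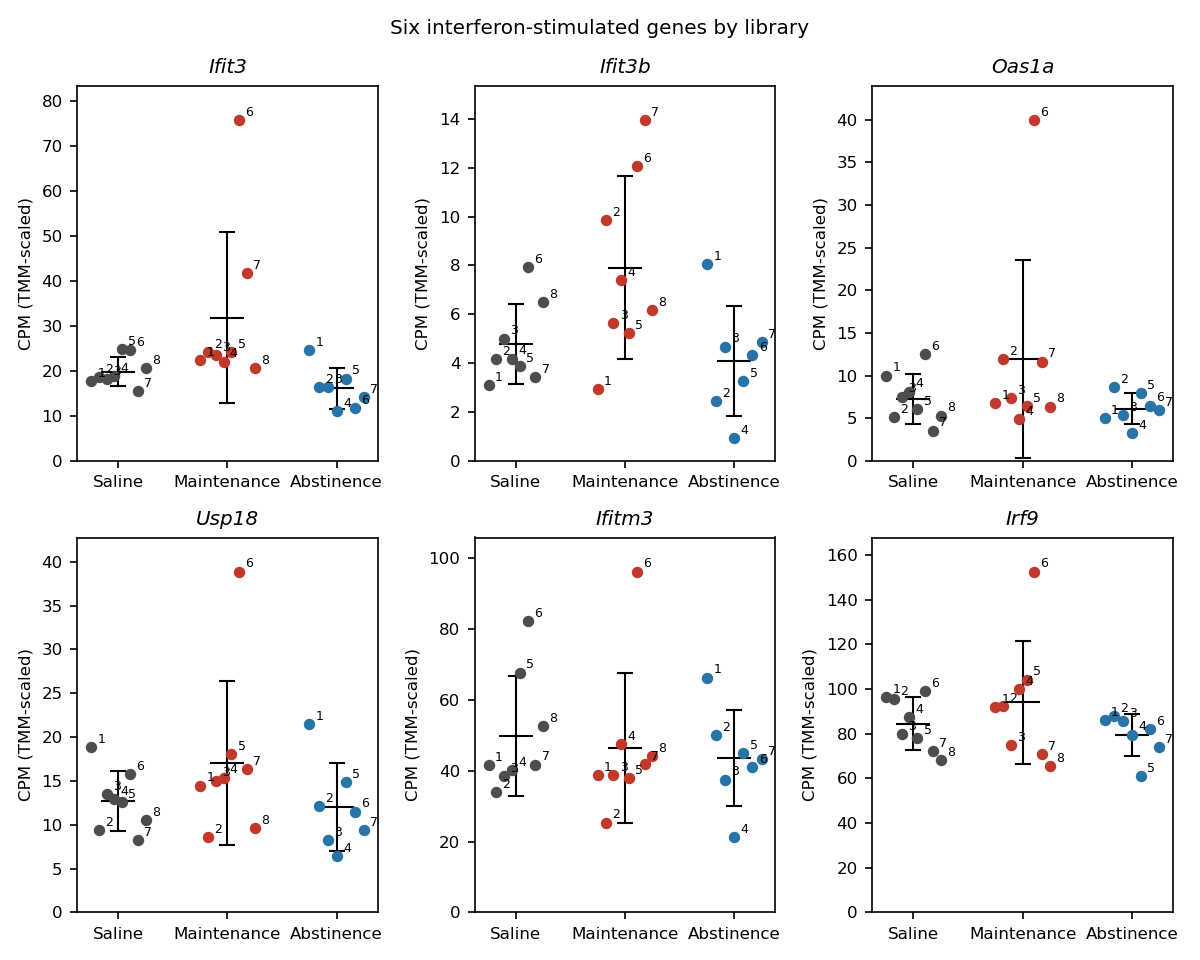
TMM-scaled CPM of 6 members in each library, numbered by replicate, with the group mean and SD as black bars. Maintenance 6 lies apart for Ifit3 (75.7 CPM), Oas1a (40.0), Usp18 (38.9), Ifitm3 (96.2) and Irf9 (153), and for Ifit3b it is second to Maintenance 7.

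Neither Isg15 nor its protease passed. Isg15, a ubiquitin-like protein attached to other proteins, measured 6.67 to 10.7 CPM in Saline (median 7.29), 5.43 to 9.96 in Maintenance (median 7.11) and 4.63 to 9.06 in Abstinence (median 7.36). The highest libraries were Saline 6, Maintenance 6 and Abstinence 1, and the groups overlapped over most of their range. Its log2 fold change was 0.00 ± 0.19 for Maintenance against Saline and -0.15 ± 0.20 for Abstinence against Saline (adjusted p = 0.997 and 0.999). Usp18, which removes ISG15 and dampens signalling at IFNAR2, measured 8.23 to 18.8 CPM in Saline (median 12.8), 8.59 to 38.9 in Maintenance (median 15.2) and 6.45 to 21.5 in Abstinence (median 11.5). Maintenance 6 again stood alone, with the next Maintenance library at 18.0 CPM. The fold change of Abstinence against Maintenance was -0.50 ± 0.28 (adjusted p = 0.554), and -0.22 without Maintenance 6 (adjusted p = 0.853).

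The oligoadenylate synthetases make the messenger that activates RNase L on double-stranded RNA. Oas1a measured 3.56 to 12.5 CPM in Saline (median 6.80), 4.87 to 40.0 in Maintenance (median 7.09) and 3.30 to 8.63 in Abstinence (median 5.92). The medians lay close together and 1 library, Maintenance 6, carried 41.9% of the summed Maintenance level. Without it the Maintenance mean went from 11.9 ± 11.6 to 7.92 ± 2.76 CPM. The log2 fold change was 0.71 ± 0.36 for Maintenance against Saline (adjusted p = 0.453) and -0.97 ± 0.38 for Abstinence against Maintenance (adjusted p = 0.288). Without Maintenance 6 these were 0.12 and -0.39, and without Maintenance 6, 7 and 8 they were 0.04 and -0.31. Its transcript was 97.5% identical to that of Oas1g over 1860 aligned bases, so its counts are uncertain in the same way as those of Ifit3.

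The related Oasl2 measured 6.47 to 14.1 CPM in Saline (median 7.35), 3.77 to 22.8 in Maintenance (median 10.5) and 5.39 to 14.9 in Abstinence (median 8.86). Maintenance 6 and 7, at 22.8 and 19.8 CPM, lay above every library of the other groups. The log2 fold change from Saline to Maintenance was 0.40 ± 0.29 (adjusted p = 0.667), and -0.09 without Maintenance 6, 7 and 8 (adjusted p = 0.977). Oas2 and Oas3 were near the limit of detection. Oas2 was at 0 in 3 Saline, 5 Maintenance and 5 Abstinence libraries and reached 1.42 CPM at most. Oas3 was at 0 in 2, 6 and 4 libraries in that order and reached 2.90 CPM in Maintenance 7. Its log2 fold change of Abstinence against Saline, -2.60 ± 1.86, was the largest of any member in size and had an adjusted p of 0.999. Oasl1, a repressor of Irf7 translation, measured at most 4.05 CPM, again in Maintenance 7, and was at 0 in 4 libraries.

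The Mx proteins are dynamin-like GTPases, and laboratory strains such as C57BL/6 carry defective alleles of both genes. Mx2 is a polymorphic pseudogene in the gene models used. Mx1 measured 0 to 1.65 CPM in Saline (median 0.08), 0 to 2.29 in Maintenance (median 1.17) and 0 to 1.30 in Abstinence (median 0.68). It was at 0 in 4 Saline, 2 Maintenance and 1 Abstinence libraries, the log2 fold change of Maintenance against Saline was 1.69 ± 1.37 (adjusted p = 0.723), and the groups overlapped. Mx2 measured 1.29 ± 0.39, 1.30 ± 0.97 and 1.54 ± 0.38 CPM in the 3 groups. Both Mx1 and Mx2 were at 0 in Maintenance 6, the library that was highest for Ifit3, Oas1a and Usp18.

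None of the 4 transcription factors passed in any comparison. Irf9, the DNA-binding part of the interferon-activated complex, measured 68.1 to 99.1 CPM in Saline (median 83.6), 65.3 to 153 in Maintenance (median 92.1) and 60.9 to 88.1 in Abstinence (median 82.0). Without Maintenance 6, at 153 CPM, the other Maintenance libraries reached 104 CPM and lay close to the Saline range. The fold change of Abstinence against Maintenance was -0.24 ± 0.14 (adjusted p = 0.568), and -0.12 without that library (adjusted p = 0.829). Stat2, its partner, measured 6.02 to 21.7 CPM in Saline (median 16.8), 6.06 to 20.6 in Maintenance (median 12.7) and 10.5 to 25.9 in Abstinence (median 13.7). Its log2 fold change was -0.35 ± 0.24 for Maintenance against Saline (adjusted p = 0.64), and the groups overlapped almost wholly. Irf7, which drives further interferon production, measured 6.96 ± 2.21, 6.45 ± 2.16 and 6.15 ± 2.73 CPM in Saline, Maintenance and Abstinence, and no fold change exceeded its SE in size. Irf1 measured 104 to 171 CPM in Saline (median 115), 86.8 to 183 in Maintenance (median 140) and 119 to 158 in Abstinence (median 138). Here Maintenance 6 was the lowest library of all 23, and the fold change from Saline to Maintenance was 0.20 ± 0.13 (adjusted p = 0.593), and 0.28 without it (adjusted p = 0.276).

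None of the 5 sensors of foreign nucleic acids passed. Ifih1 (MDA5) measured 42.6 ± 7.4, 44.5 ± 9.6 and 44.3 ± 7.5 CPM in Saline, Maintenance and Abstinence, and Ddx58 (RIG-I) measured 25.8 ± 4.0, 25.1 ± 4.1 and 24.2 ± 4.3. Their fold changes lay between -0.09 and 0.06 on the log2 scale, each within its SE of 0 (SE 0.13 to 0.14). Dhx58 (LGP2), their regulator, measured 5.34 to 13.5 CPM in Saline (median 9.02), 0 to 11.6 in Maintenance (median 5.10) and 3.18 to 11.4 in Abstinence (median 8.55). Its Maintenance libraries fell into a wide spread, with Maintenance 7 at 0 and Maintenance 6 at 1.56 CPM, and the fold change against Saline was -0.71 ± 0.58 (adjusted p = 0.731), and -0.19 without Maintenance 6, 7 and 8 (adjusted p = 0.941). Zbp1, a sensor of Z-form nucleic acid that triggers necroptosis, measured 2.19 ± 0.94, 1.65 ± 0.69 and 1.27 ± 0.89 CPM. Ifi204, a DNA sensor, measured 4.24 to 13.7 CPM in Saline (median 5.78), 3.80 to 21.4 in Maintenance (median 7.93) and 4.96 to 8.98 in Abstinence (median 5.40). Its highest Maintenance library was Maintenance 5 and its lowest was Maintenance 6, and the fold change of Maintenance against Saline was 0.40 ± 0.31 (adjusted p = 0.705).

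Of the membrane factors, Bst2 had the smallest spread of all members within groups, a pooled SD of 0.18 on the log2 scale. It measured 68.5 to 94.9 CPM in Saline (median 80.3), 59.3 to 90.2 in Maintenance (median 76.1) and 64.5 to 88.9 in Abstinence (median 75.1), with log2 fold changes of -0.09 ± 0.09 and -0.07 ± 0.10 against Saline. The groups overlapped throughout. Ifitm3 measured 33.9 to 82.1 CPM in Saline (median 41.7), 25.4 to 96.2 in Maintenance (median 40.3) and 21.2 to 66.3 in Abstinence (median 43.3). Its medians lay between 40.3 and 43.3 CPM, and its highest libraries were Saline 6, Maintenance 6 and Abstinence 1. Both fold changes against Saline were within their SE of 0 (-0.10 ± 0.23 and -0.20 ± 0.24), and without Maintenance 6 the first was -0.35 (adjusted p = 0.527).

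Among the remaining effectors, Ifi35 was lower in both methamphetamine groups without passing. It measured 52.4 to 82.2 CPM in Saline (median 73.9), 43.3 to 71.7 in Maintenance (median 61.1) and 50.1 to 69.7 in Abstinence (median 61.5). Saline 1, 2, 4, 5 and 6 lay above every library of the other groups, while Saline 3, 7 and 8 lay among them. The log2 fold change was -0.25 ± 0.10 in Maintenance (unadjusted p = 0.0249, adjusted p = 0.316) and -0.24 ± 0.11 in Abstinence (unadjusted p = 0.0392, adjusted p = 0.999). These 2 comparisons share the Saline libraries. Xaf1, a partner of the caspase inhibitor XIAP, measured 12.4 to 15.1 CPM in Saline (median 14.5), 11.6 to 30.0 in Maintenance (median 15.3) and 7.88 to 15.7 in Abstinence (median 13.1). Its fold change of Abstinence against Maintenance was -0.42 ± 0.18 (adjusted p = 0.366), with Maintenance 6 at 30.0 CPM and Maintenance 1 at 22.2 the only libraries above 20 CPM. Without Maintenance 6 it was -0.26 (adjusted p = 0.602).

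Cxcl10, a chemokine for T cells, measured 6.54 ± 2.49, 6.40 ± 2.26 and 6.31 ± 1.82 CPM in Saline, Maintenance and Abstinence, and Rsad2 (viperin) measured 7.27 ± 3.33, 7.11 ± 2.96 and 7.23 ± 2.31. Their log2 fold changes lay between -0.05 and 0.02 in the 3 comparisons. For Rsad2 the Maintenance mean rested on Maintenance 7 and 6, at 12.9 and 10.6 CPM, with the next Maintenance library at 5.86. Over the alternative runs its fold change ranged from -0.36 to 0.18 for Maintenance against Saline. For Abstinence against Maintenance it ranged from -0.08 to 0.35. Ifi27l2a measured 2.78 to 7.96 CPM in Saline (median 4.07), 2.53 to 6.70 in Maintenance (median 3.43) and 1.53 to 5.29 in Abstinence (median 3.44). Its libraries overlapped across groups, and the fold change of Abstinence against Saline was -0.45 ± 0.33 (adjusted p = 0.999). Ifi44 was at 0 in 2 Maintenance and 2 Abstinence libraries and reached 4.81 CPM in Saline 5. Isg20 (an exonuclease), Rtp4 (a chaperone of opioid and other receptors), Trim30a, Parp14 (an ADP-ribosyltransferase) and Sp100 (of PML nuclear bodies) had adjusted p-values of 0.506 or more in all 3 comparisons. Of these 5, Rtp4 had the largest fold change, -0.38 ± 0.22 for Abstinence against Maintenance, with Maintenance 6 at 55.5 CPM and the next Maintenance library at 26.2. Without Maintenance 6 that fold change of Rtp4 was -0.14 (adjusted p = 0.892).

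In each group 1 library held the highest value for many members. Saline 6 was the highest Saline library for 20 of 35 members (57.1%), against 14.2% of all genes tested. Abstinence 1 was the highest of its group for 20 members (57.1%, against 19.6% of all genes), and Maintenance 6 for 16 (45.7%, against 17.0%). At the other end, Saline 7 was lowest of its group for 14 members (40.0%, against 18.3% of all genes), Abstinence 4 for 11 (31.4%, against 12.0%) and Maintenance 8 for 9 (25.7%, against 10.1%). No test was made of these shares.

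**Figure D4:**
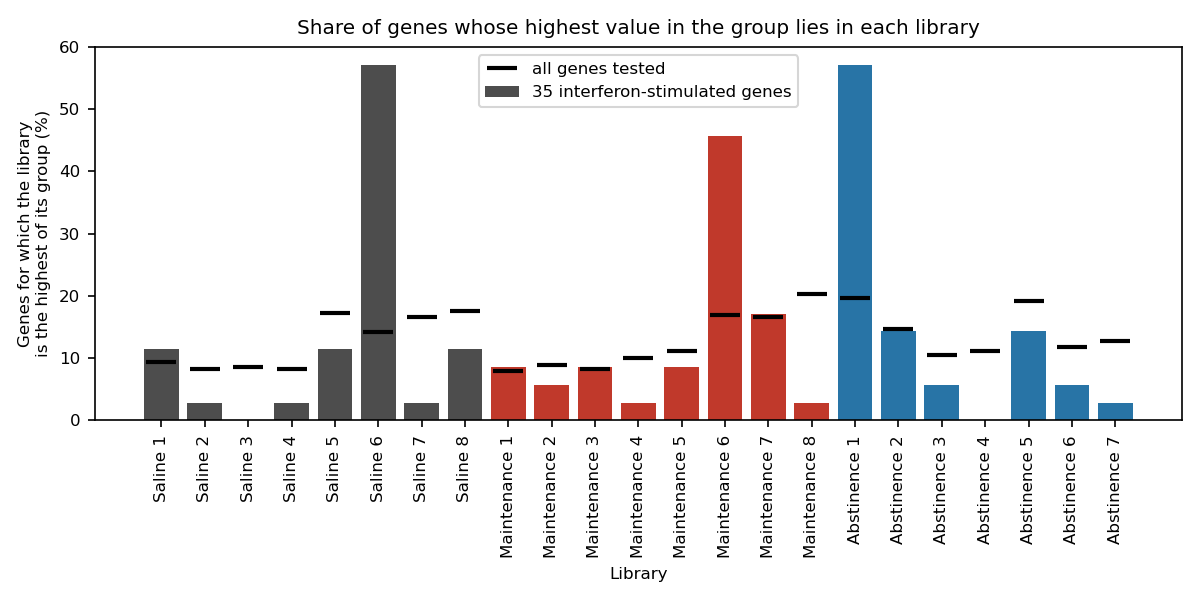
Bars give the share of the 35 members whose highest value in the group lies in each library, and black ticks give the same share over all genes tested. Saline 6 and Abstinence 1 reach 57.1% and Maintenance 6 reaches 45.7%, each above its tick.

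The 3 libraries were not raised in the same way. Saline 6 stood at least 1.5-fold over the median of the other Saline libraries for 15 members (42.9%, against 11.8% of all genes), and so did Abstinence 1 within its group (15 members, 42.9%, against 19.4%). Maintenance 6 did so for 14 members (40.0%, against 18.2%) and Maintenance 7 for 11 (31.4%, against 18.5%). The ratios of Maintenance 6 to the median of the other Maintenance libraries were 5.88 for Oas1a, 3.21 for Ifit3, 2.59 for Usp18, 2.48 for Ifitm3, 2.42 for Rtp4 and 2.19 for Oasl2, while Irf1 stood at 0.62 and Dhx58 at 0.22. The mean log2 CPM of the 35 members was 3.64 in Saline 6 and 3.51 in Abstinence 1 but 2.91 in Maintenance 6, below Maintenance 5 at 3.23. Over the 28 members of at least 3 CPM on average it was 4.51 in Maintenance 6, the highest of all 23 libraries, so the lower place came from the 7 members below 3 CPM.

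Group means of that summary were 3.04 ± 0.31 in Saline, 2.95 ± 0.17 in Maintenance and 2.82 ± 0.33 in Abstinence (SD), and over the 28 members 4.03 ± 0.23, 4.03 ± 0.22 and 3.89 ± 0.23. The groups lay within 1 SD of each other on both. The median SD of log2 CPM within groups was 0.53 over the members and 0.58 over all genes. Among genes of at least 3 CPM it was 0.49 for the 28 members and 0.34 for 10460 genes, and below 3 CPM it was 2.40 for 7 members and 1.95 for 5661 genes. The largest SDs were those of Oas3 (2.51), Ifi44 (2.44), Oas2 (2.41) and Mx1 (2.40), all with libraries at 0, and the smallest were those of Bst2 (0.18) and Ifi35 (0.21).

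Summed markers of monocytes were high in the same libraries. In each group the library with the most members at their highest was also the one with the largest sum over 9 monocyte markers (all 9 in the table). These were Saline 6 at 353 CPM (group range from 112, median 139), Maintenance 6 at 263 (from 118, median 147) and Abstinence 1 at 207 (from 110, median 129). Without Ms4a4c, itself interferon-inducible, and F13a1, shared with border-associated macrophages, the sums were 166, 68.6 and 91.0 CPM and still the highest of their groups (medians 51.8, 33.6 and 37.1). In Maintenance 6, F13a1 gave 186 CPM of the sum and Chil3, S100a4 and Vcan were at 0. Ly6c2 stood at 1.25 CPM there, below Maintenance 3 at 3.89. Ccr2 (35.8 CPM), Fn1 (23.5), Plac8 (8.08) and Ms4a4c (7.68) were the highest of the group. Of the 13 neutrophil markers, all in the table, the sum reached 957 CPM in Saline 6 (Saline range from 50.1, Maintenance 9.97 to 195, Abstinence 14.6 to 172). S100a8, S100a9 and Retnlg gave 416, 175 and 162 CPM of the Saline 6 sum. Both S100a8 and S100a9 were above 0 in every library. Mpo and Elane were at 0 in every Maintenance and Abstinence library. They were highest in Saline 5 (139 and 54.5 CPM) and stood at 4.30 and 1.04 CPM in Saline 6.

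Summed, the 9 border-associated macrophage markers were likewise highest in Saline 6 (436 CPM, Saline range from 241) and Maintenance 6 (508 CPM, Maintenance range from 268), but in Abstinence they spanned only 255 to 313 CPM and Abstinence 2 was highest. F13a1, also in the monocyte list, gave 162 and 186 CPM of the first 2 sums. In Maintenance 6, Cbr2, Cd163, Lyve1, Ms4a7 and Stab1 were also the highest of the group. Mrc1 (80.8 CPM, Maintenance 7 at 105) and Pf4 (15.3 CPM, Maintenance 2 at 27.0) were not, and Siglec1 was at 0. Endothelial and pericyte markers (10 of 10 in the table) reached 2276 CPM in Maintenance 6 (Maintenance range from 358) and 1437 in Abstinence 1 (Abstinence range from 344), whereas Saline 6 had the lowest Saline value, 415 CPM of up to 1406. Lymphocyte markers (13 of 14 in the table) summed to 31.1 to 75.1 CPM over all libraries, with Cd3e at 0 in every one. The part of these cells in the members' values was not tested.

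The rest of the pathway was read from 138 genes in lists of ligands, receptors and kinases, induction, negative regulators and further targets, of which 134 were in the table and 112 were tested. In Maintenance against Saline 1 rose and 1 fell, in Abstinence against Saline 0 passed, and in Abstinence against Maintenance 1 rose and 3 fell. Of all genes, 0.707%, 0.0186% and 0.949% passed in that order, a smaller share than of the 112 in both comparisons with Maintenance. At an unadjusted p under 0.05 there were 22, 7 and 27 of the 112, each a larger share than the 11.8%, 4.39% and 11.0% of all genes. These shares were not tested. The median log2 fold changes of the 112 were -0.06, -0.08 and 0.01, where all genes had 0.01 in each comparison. With DESeq2 the counts were 4, 1 and 8 genes, and with limma voom 8, 2 and 6.

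Interferon transcripts themselves were scarce. Of 21 ligand genes, 17 were at 0 in every library. Ifnb1 had counts in 7 of 8 Saline, 1 of 8 Maintenance and 6 of 7 Abstinence libraries, reaching 0.789, 0.393 and 1.39 CPM. Its log2 fold change of Maintenance against Saline was -3.06 ± 1.47 (adjusted p = 0.41), so the pattern did not pass, and the highest value of all rested on 100 counts. Ifng had counts in 5 libraries, reached 0.947 CPM in Abstinence 1 and was not tested.

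Of the receptors and signalling genes, Ifnar1 measured 96.4 ± 11.4, 91.4 ± 14.3 and 88.7 ± 13.8 CPM in Saline, Maintenance and Abstinence, and Ifnar2 138 ± 14, 148 ± 16 and 149 ± 7. Irf3 measured 53.6 ± 3.2, 50.8 ± 8.3 and 46.2 ± 6.7 CPM, and Irf8, a factor of microglial identity, 618 ± 59, 574 ± 97 and 646 ± 44. None of these 4 passed in any comparison. The feedback inhibitors Socs1 and Socs3 were lower in Maintenance than in Saline, by log2 fold changes of -0.44 ± 0.16 and -0.39 ± 0.13, and did not pass (adjusted p = 0.197 and 0.16).

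Tlr7, the endosomal sensor of single-stranded RNA upstream of interferon, fell from Maintenance to Abstinence. It measured 239 to 391 CPM in Saline (median 280), 244 to 353 in Maintenance (median 295) and 186 to 243 in Abstinence (median 214). Every Abstinence library lay below every Maintenance library, a separation that 0.198% of all genes showed in that direction. The log2 fold change was -0.48 ± 0.09 against Maintenance (adjusted p = 0.00955) and -0.42 ± 0.09 against Saline (adjusted p = 0.189). The first passed in every alternative run (adjusted p from 4.9e-05 to 0.0299).

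Gbp7, a guanylate-binding protein induced by interferon-gamma, also fell from Maintenance to Abstinence. It measured 89.2 to 128 CPM in Saline (median 111), 98.7 to 158 in Maintenance (median 131) and 72.6 to 105 in Abstinence (median 85.9), and Maintenance 8 was the 1 Maintenance library inside the Abstinence range. The log2 fold change was -0.59 ± 0.10 (adjusted p = 0.00255), and it passed in every alternative run. Lgals9, galectin-9, fell in Maintenance against Saline by 0.32 ± 0.07 on the log2 scale (adjusted p = 0.0261) and rose by 0.34 ± 0.07 from Maintenance to Abstinence (adjusted p = 0.0144). Its means were 463 ± 35, 372 ± 41 and 470 ± 42 CPM, with Saline 8 at 401 inside the Maintenance range. The first call ended without Saline 1 (adjusted p = 0.0576), Saline 3 (0.0512) or Maintenance 6 to 8 (0.114), and the second without Maintenance 6 to 8 (0.071). Both calls also ended with only the compared groups (adjusted p = 0.0531 and 0.0624) and in the libraries of the second deposited table (0.136 and 0.0824).

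Tbk1, the kinase that activates IRF3, rose in Maintenance against Saline by 0.32 ± 0.08 (adjusted p = 0.0466) and fell from Maintenance to Abstinence by 0.32 ± 0.08 (adjusted p = 0.0421). Its means were 70.5 ± 7.0, 87.8 ± 9.5 and 70.1 ± 4.3 CPM. Both calls lay near the threshold. The first ended, at adjusted p = 0.0507 to 0.0883, without any single library except Saline 1, Maintenance 2, 4 or 8 and Abstinence 1. The second ended, at 0.0533 to 0.0849, without Maintenance 5 or 6 or any single Abstinence library except Abstinence 4. Without Maintenance 6 to 8 together the adjusted p-values were 0.147 and 0.106, and with limma voom they were 0.117 and 0.0732. They were 0.102 and 0.0886 with only the compared groups and 0.345 and 0.0883 in the libraries of the second deposited table.

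**Figure D5:**
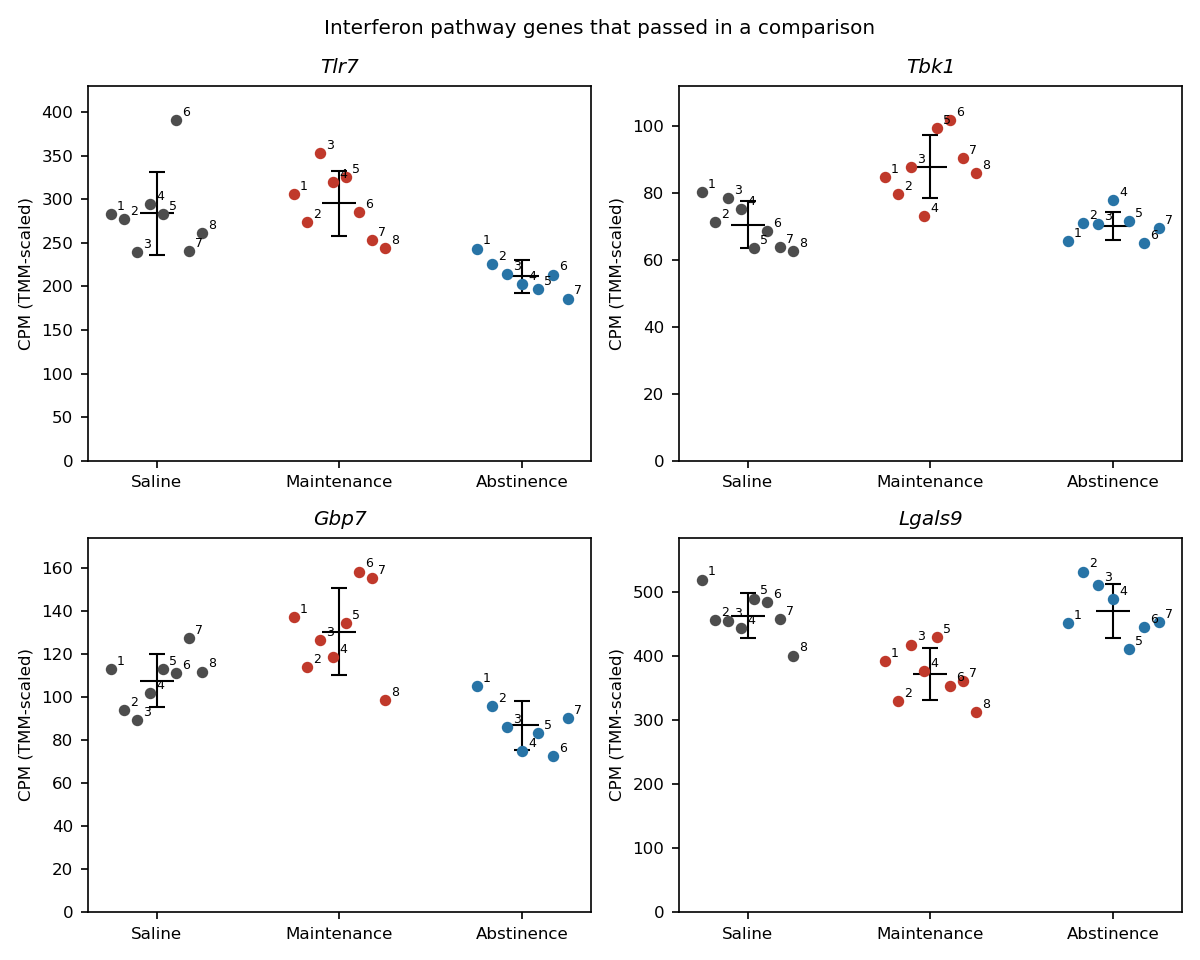
TMM-scaled CPM of the 4 further pathway genes that passed in a comparison, by library, numbered by replicate, with the group mean and SD as black bars. The Tlr7 values of Abstinence (186 to 243 CPM) lie below those of Maintenance (244 to 353 CPM), and the Tbk1 mean is highest and the Lgals9 mean lowest in Maintenance.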

How the data were processed

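Striatal microglia gave 23 libraries, prepared with a low-input kit (per the labels' protocols). The aligner STAR 2.7.10a, StringTie 2.1.5, cutadapt 1.18, Trim Galore 0.6.7, DESeq2 1.38.3 and the build mm10 (GRCm38) are named, without settings, per the submitters' processing notes. The strand is not given in the sources used here. The deposited table holds whole-number counts per gene. Whether these are tallied reads or were derived from the coverage that StringTie estimates was not checked. A second table, called normalized, held the same deposited counts for 17 libraries (0 of 611592 values differed) and served only to choose an alternative set of libraries.

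Genes were kept with filterByExpr (minimum count 10, minimum total 15). Counts were TMM-scaled and fitted in 1 quasi-likelihood model of all 23 libraries (edgeR 4.0.16, R 4.3.3, glmQLFit robust, group as the only factor). Adjusted p-values are Benjamini-Hochberg over 16121 genes. The common biological coefficient of variation was 0.831. Alternatives were upper-quartile and RLE factors, other filters, DESeq2 1.42.0, limma voom 3.58.1, a replicate block, fewer libraries, another prior count and, added after the data were seen, Ifit3 and Ifit3b summed, members of 3 CPM or more, and a shorter monocyte list.

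Values are given for members that passed, the 4 of smallest p per comparison, the 4 of largest and 2 of smallest SD within groups, and a set of well-known members. Other members are given briefly. One further pathway gene is not reported here. The members, lists and tests were chosen with earlier results of these data known. Positions come from GENCODE M21 (35 of 35 members matched). Of the members, 4 overlap a tested gene (Irf9, Rtp4, Cxcl10 and Irf7), and 0 of these neighbours passed. Rtp4, Cxcl10 and Irf7 cannot be told apart from their neighbours without strand, and Irf9 lies on the same strand as its neighbour Rnf31. Same-numbered libraries did not deviate together, with no pair correlated over 0.1 in any comparison. Limits from counts of 0 cover counting error only and take the counts as tallied reads.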

Additional observations from a re-analysis of the deposited data

Results flagged for a closer look

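Dixon's criterion flags a library that stands apart from the rest of its group, by chance in about 1 of 20 independent, normally spread groups. The members share libraries, so their groups are not independent and that rate is not a yardstick here. Among 105 groups of libraries (35 members in 3 groups), 15 extreme libraries in 12 members were flagged on the log2 scale. The high ones were Isg15 in Saline 6 (10.7 CPM, others up to 7.76), Oas1a in Maintenance 6 (40.0 CPM, others up to 11.9), Ifitm3 in Maintenance 6 (96.2 CPM, others up to 47.5) and Stat2 in Abstinence 5 (25.9 CPM, others up to 15.5). Saline 7 was low for Ifit1 (1.28 CPM, others from 5.86), Ifit2 (13.3 CPM, others from 19.8) and Stat2 (6.02 CPM, others from 12.3), and Saline 3 was low for Ddx58 (17.4 CPM, others from 24.2).

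The others were low values. Oasl1 was at 0 in Saline 3 and in Abstinence 7, Mx1 at 0 in Abstinence 6, Mx2 at 0 in Maintenance 6, Dhx58 at 0 in Maintenance 7, and Zbp1 at 0.341 CPM in Maintenance 2 and at 0 in Abstinence 5. Each 0 allows at most 0.0546 CPM if counts are tallied reads. On the log2 scale a 0 takes a fixed value set by the prior count, so the flags at 0 depend on that choice.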

How the results depend on the processing

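Over the alternatives run, no member was called in Maintenance or Abstinence against Saline, and Ifit3 was the only member called in Abstinence against Maintenance. Its call was lost, leaving 0 members, with upper-quartile factors, robust = FALSE, a replicate block, only the compared groups, without Maintenance 6, 7 and 8, and in the libraries of the second table (0 to 1 with 1 library left out). Its log2 fold change in that comparison stayed negative in each alternative. Fold changes of 19, 18 and 19 members kept their sign in every alternative in the 3 comparisons (Maintenance against Saline, Abstinence against Saline, Abstinence against Maintenance), and those of the other 16, 17 and 16 took the opposite sign in at least 1. The cause of these changes was not tested.

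All genes called, 114, 3 and 153 in that order, became 349, 36 and 452 with DESeq2, 411, 184 and 331 with limma voom, 57, 5 and 64 with only the compared groups, and 176, 56 and 238 in the second table's libraries. With 1 CPM required, Abstinence against Saline gave 6 and Abstinence against Maintenance 242, without Maintenance 6, 7 and 8 the former gave 15, and with 1 library left out they ranged over 42 to 197, 1 to 15 and 89 to 265. With the replicate number as a block the first was 69, and Ifit3 in Abstinence against Maintenance gave -0.90 (adjusted p = 0.102). Same-numbered libraries share only a number.

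Pathway genes called, 2, 0 and 4, became 4, 1 and 8 with DESeq2, 8 and 2 in the comparisons against Saline with voom, 0 in the first and 2 in the last with only the compared groups, and 1 in the first with upper-quartile factors, with no filter or without Maintenance 6, 7 and 8. Abstinence against Saline gave 1 without those libraries and in the second table's. With 1 library left out they ranged over 0 to 3, 0 and 3 to 9. Over members of 3 CPM or more the mean log2 CPM was 4.03, 4.03 and 3.89 in Saline, Maintenance and Abstinence, and the shorter monocyte list had a median of 40.7 CPM in place of 134.

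At the depth of these libraries a count of 0 allows at most 0.0546 CPM if counts are tallied reads. The 7 members below 3 CPM had a median SD within groups of 2.40 on the log2 scale. Oas3 was at 0 in 6 Maintenance libraries and at 248 counts in Maintenance 7, a spread wider than counting error, and its cause was not tested. No saline group passed through the 21 days.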

Other observations

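Outside the interferon lists, the tested genes whose log2 CPM followed the mean of the 35 members most closely over the 23 libraries, with group means taken off, were Hacd4 (Pearson r = 0.83), Gm40190 (0.77), Tlr13 (0.74), Lilr4b (0.71), Gm33310, Gm42326 and LOC105244007 (0.70 each) and Trim30d (0.69). These values are a description of libraries that share depth and cell makeup, with no test. The further list of 53 interferon-stimulated genes outside the 35 had its highest value of the group in Maintenance 6 for 22 genes (41.5%), in Saline 6 for 19 (35.8%) and in Abstinence 1 for 9 (17.0%, against 19.6% of all genes tested).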
